A study of Mus musculus and Homo sapiens with 10 samples.

Results

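Many genes that every cell needs have a second copy that is used mainly in male germ cells. Several of these parents lie on the X chromosome, which is silenced while spermatocytes go through meiosis, and their testis copies arose as spliced RNAs that were copied back into an autosome. Such copies are a standard example of genes that are kept off outside the germ line. Here, 7 testis paralogs were followed in mouse embryonic stem cells (mESCs) treated with vitamin C (vitC): *Rpl39l* and *Rpl10l*, which encode ribosomal proteins, the RNA helicase gene *D1Pas1*, the metabolic enzyme genes *Pgk2*, *Ldhc* and *Pdha2*, and *Ube2dnl*, named for its likeness to the Ube2d ubiquitin-conjugating enzymes. They were found by symbol in the gene expression table, where they are 7 of 25899 genes, and they were selected on their response to vitC in these same libraries, that is, on the values of the control and treated groups compared here. Their vitC differences are therefore given as descriptions, without a test. VitC is a cofactor of the 2-oxoglutarate-dependent dioxygenases, a family that includes DNA and histone demethylases.

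The cells were E14, an established mESC line that carries no further allele or transgene according to the labels. They were grown in 2i medium with LIF and inhibitors of MEK and GSK3, and RNA-seq was made from 4 untreated control cultures and 4 cultures given vitC at 100 µg/ml for 24 h. A control and a treated library with 1 number in common come from cultures with the same name in the labels, which gives 4 pairs. A single control and a single vitC-treated culture of H9, an established human embryonic stem cell (hESC) line, received the same dose for the same time. The labels name the human line as H9, while the study's methods describe H9 and also H9-NK2, a derivative with doxycycline-inducible KLF2 and NANOG transgenes. Which of these was sequenced is not given in the sources used here, while the study describes the sequenced hESCs as primed.

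The deposited values are variance-stabilised, on a scale that approaches log2 for genes with many reads and compresses the differences of genes with few reads. This transformation could be inverted, so each value is also given as recovered reads and as CPM, reads relative to the library total as scaled by TMM. The mESC libraries held between 3354852 (vitC replicate 3) and 6921305 (control replicate 4) gene reads. The labels name either ribosomal RNA depletion or mRNA isolation, with no choice stated for any single library, and the study's methods name depletion alone. Ribosomal RNA repeats held 42.0% to 63.1% of the repeat counts. Markers of pluripotent cells summed to between 4947 and 5317 CPM in control and between 4747 and 5352 CPM in vitC-treated libraries. Of the 7 markers in this sum, 0 were called higher and 0 lower in limma, but they did not move alike. Relative to depth, *Nanog*, *Pou5f1* and *Zfp42* were lower with vitC in each pair. *Tfcp2l1*, which had the most reads, was higher in each pair, and *Sox2*, *Klf4* and *Esrrb* had no single direction. In bulk RNA, more cells with a transcript and more transcript per cell cannot be told apart.

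Of the 9 markers of late male germ cells that were looked up, 7 had no read in any library (*Prm1*, *Prm2*, *Tnp1*, *Tnp2*, *Acrv1*, *Acr* and *Tssk1*). The protamine and transition protein genes, which pack sperm chromatin, are among them. The other two, *Piwil1* and *Zpbp*, together had 3 to 20 reads per library, and the list summed to between 0.577 and 0.972 CPM in control and between 1.68 and 3.47 CPM in vitC-treated libraries. Markers of 2-cell-like cells, a rare state in mESC cultures, summed to between 0 and 1.13 CPM in control and between 1.47 and 6.15 CPM with vitC, with *Zfp352* and *Tcstv3* at 0 in all libraries. Markers of primitive endoderm summed to between 1.99 and 5.34 CPM in control and between 3.57 and 8.39 CPM with vitC, and those of fibroblasts to between 0 and 5.83 and between 1.19 and 11.004 CPM, so the groups overlapped in both lists. Most fibroblast marker reads were of *Col1a2*, with 36 and 15 in control and 56 and 40 with vitC in pairs 1 and 2, and 0 in pairs 3 and 4. The sums of the late germ cell and of the 2-cell-like markers were higher with vitC without overlap. Most of the former reads came from *Piwil1*, and vitC replicate 1 held 33 of the 67 reads of the latter. The part of these few cells or reads in the values below was not tested.

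How well short reads can be told apart between a testis copy and its parent depends on how many bases differ between them. *Rpl39l* encodes a small protein of the large ribosomal subunit, and its coding sequence of 156 bases differs from that of *Rpl39* at 23 bases. These are shown whole because they are the shortest of the pairs described here, so that the spacing of the differing bases can be seen. In the coding sequences below, taken from the GENCODE M21 transcripts, capitals mark the bases at which the other gene has a different base.
Rpl39l: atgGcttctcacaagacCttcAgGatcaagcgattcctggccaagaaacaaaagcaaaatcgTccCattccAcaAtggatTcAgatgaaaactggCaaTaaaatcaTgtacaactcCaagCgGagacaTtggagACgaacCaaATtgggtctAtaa
Rpl39: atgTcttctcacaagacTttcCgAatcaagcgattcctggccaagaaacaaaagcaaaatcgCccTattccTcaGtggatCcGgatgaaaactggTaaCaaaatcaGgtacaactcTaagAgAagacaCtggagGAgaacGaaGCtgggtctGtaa

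Over the aligned coding bases, identity to the parent was 85.3% for *Rpl39l*, 84.8% for *Rpl10l* against *Rpl10*, 87.4% for *D1Pas1* against *Ddx3x*, 79.3% for *Pgk2* against *Pgk1*, 73.7% for *Ldhc* against *Ldha*, 75.6% for *Pdha2* against *Pdha1* and 75.2% for *Ube2dnl* against *Ube2d2*. Another measure for read placement is the share of a transcript's 50-base windows that occur, on the same strand, in a transcript of another gene. It counts only exact matches to annotated transcripts, so 0% does not show that every read was placed without doubt. The longest identical coding run was 44 bases for *D1Pas1* against *Ddx3x* and 38 bases for *Rpl39l* against *Rpl39*. The share was 0% for *Rpl39l*, *D1Pas1*, *Pgk2*, *Ldhc* and *Pdha2*. It was 7.60% for *Rpl10l*, all of it shared with the pseudogene *Gm14460*, and 11.7% for *Ube2dnl*, all of it shared with its neighbour *Ube2dnl2*. The parents shared more with other annotated genes, up to 85.4% for *Rpl10*, most with *Rpl10-ps3*, and 68.0% for *Pgk1*, most with the processed pseudogene *Pgk1-rs7*. How reads that fit several genes were counted is not given in the sources used here, so the levels of these parents are uncertain.

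**Figure D1:**
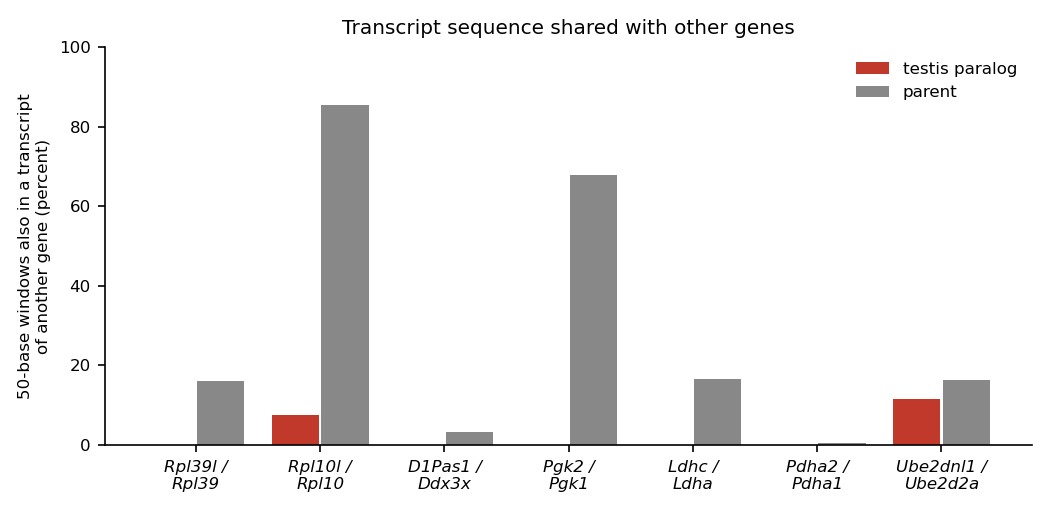
Percent of the 50-base windows of each transcript that also occur in a transcript of another gene (y axis), for the testis paralog (red) and its parent (grey) of each pair. Only Rpl10l (7.60%) and Ube2dnl1 (11.7%, the annotation's name for Ube2dnl) have a red bar above 0, while Rpl10 reaches 85.4%.

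Coordinates are those of GENCODE M21 on GRCm38, the assembly that mm10 denotes. *Rpl39l* lies on chromosome 16 (10170226 to 10174911, plus strand) and has 3 exons. *Rpl10l* (chromosome 12, 66283379 to 66284401, minus strand), *D1Pas1* (chromosome 1, 186967416 to 186970627, plus strand), *Pgk2* (chromosome 17, 40207015 to 40208640, minus strand) and *Pdha2* (chromosome 3, 141210004 to 141212355, minus strand) each have 1 exon. The parents of these 5 genes, *Rpl39*, *Rpl10*, *Ddx3x*, *Pgk1* and *Pdha1*, lie on the X chromosome. *Ldhc* (chromosome 7, 46861203 to 46878142, plus strand) has 8 exons, as does its parent *Ldha*, which ends 5576 bases before it on the same strand. *Ube2dnl* lies on the X chromosome itself (114905012 to 114905941, plus strand) and has 2 exons.

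The largest differences among the members were those of *Rpl39l*, *Ube2dnl*, *D1Pas1* and *Pdha2*. In these 4 genes no control library reached the lowest vitC library, which was so for 3.31% of the 14631 genes tested in the higher direction. Higher values in 4 of 4 pairs were found for 5 of the 7 members, those 4 and *Rpl10l*, against 15.4% of the genes tested. Because the members were picked for this contrast, nothing is read from these counts.

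*Rpl39l* had 123, 119, 76 and 134 reads in the control libraries and 346, 423, 178 and 334 in the vitC-treated libraries of pairs 1 to 4. Every vitC-treated library lay above every control, also in pair 3, whose vitC library was the shallowest of the 8. Its level went from 19.8 ± 2.57 CPM (SD, n = 4) to 65.3 ± 8.997 CPM (SD, n = 4), 3.30 times the control mean. Within the pairs this ratio was 3.24, 3.19, 3.15 and 3.63. On the variance-stabilised scale the difference was 1.08 (standard error 0.08).

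*D1Pas1* encodes a DEAD-box RNA helicase, the close relative of its X-linked parent *Ddx3x*. It had 274, 197, 204 and 266 reads in control and 374, 454, 265 and 349 reads in vitC-treated libraries. Scaled to depth, the controls lay between 38.1 and 45.1 CPM and the treated libraries between 69.8 and 78.8 CPM, without overlap. The means were 41.5 ± 3.73 CPM (SD, n = 4) and 75.2 ± 4.46 CPM (SD, n = 4), a ratio of 1.81, and the variance-stabilised difference was 0.61 (standard error 0.06).

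*Ube2dnl* was almost silent in control libraries, with 1, 0, 0 and 0 reads, and had 19, 23, 9 and 15 reads with vitC. In treated libraries this came to 3.34 ± 0.561 CPM (SD, n = 4). Summed over the libraries of each group, 66 reads stood against 1. The gene passed the filter on low values only through its vitC-treated libraries, and its variance-stabilised difference of 0.67 (standard error 0.06) understates the change in its reads. Its neighbour *Ube2dnl2* (X chromosome, 114907582 to 114908510), which shares 94.7% of its coding bases, had 3 reads over all 8 libraries.

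*Pdha2* encodes the testis form of the E1 alpha subunit of pyruvate dehydrogenase, which feeds pyruvate into the citric acid cycle. It had 12, 9, 4 and 12 reads in control and 24, 19, 14 and 25 reads in vitC-treated libraries. No control overlapped a treated library once scaled to depth, at 0.884 to 1.94 CPM against 3.30 to 5.25 CPM. The means were 1.58 ± 0.471 CPM (SD, n = 4) and 4.30 ± 0.807 CPM (SD, n = 4), a ratio of 2.73, and the variance-stabilised difference was 0.31 (standard error 0.06). With so few reads the ratio within pairs was wide, from 1.89 in pair 2 to 4.71 in pair 3.

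*Rpl10l* encodes the testis form of the large subunit protein uL16 and is required for male meiosis. The label of a testis-restricted gene was not borne out in these cells: with 754 to 1060 reads per control library it was the most abundant of the 7 before any treatment, also per transcript length. *Rpl39l* and *D1Pas1* were also expressed before treatment, with 76 to 134 and 197 to 274 reads per control library. *Rpl10l* had 923, 754, 780 and 1060 reads in control and 995, 978, 648 and 921 with vitC, or 155 ± 11.8 CPM (SD, n = 4) and 185 ± 10.97 CPM (SD, n = 4). Each treated library was above its own control, by a ratio of 1.12 to 1.26, but control replicate 3, at 172 CPM, lay above vitC replicate 2, at 170 CPM. The variance-stabilised difference was 0.23 (standard error 0.07).

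*Ldhc* encodes the lactate dehydrogenase subunit of sperm. Its reads were 38, 25, 16 and 13 in control and 24, 35, 19 and 31 in vitC-treated libraries, and the groups overlapped. It went from 4.10 ± 1.83 CPM (SD, n = 4) to 5.68 ± 0.875 CPM (SD, n = 4), a variance-stabilised difference of 0.15 (standard error 0.09). The pairs disagreed: the ratio was 0.727 in pair 1 and 1.26, 1.60 and 3.47 in pairs 2 to 4. *Pgk2*, the testis form of phosphoglycerate kinase in glycolysis, had 0 reads in all 8 libraries. At these depths a count of 0 allows up to 0.433 CPM in the deepest library and 0.894 CPM in the shallowest, taking 3 reads as the limit.

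**Figure D2:**
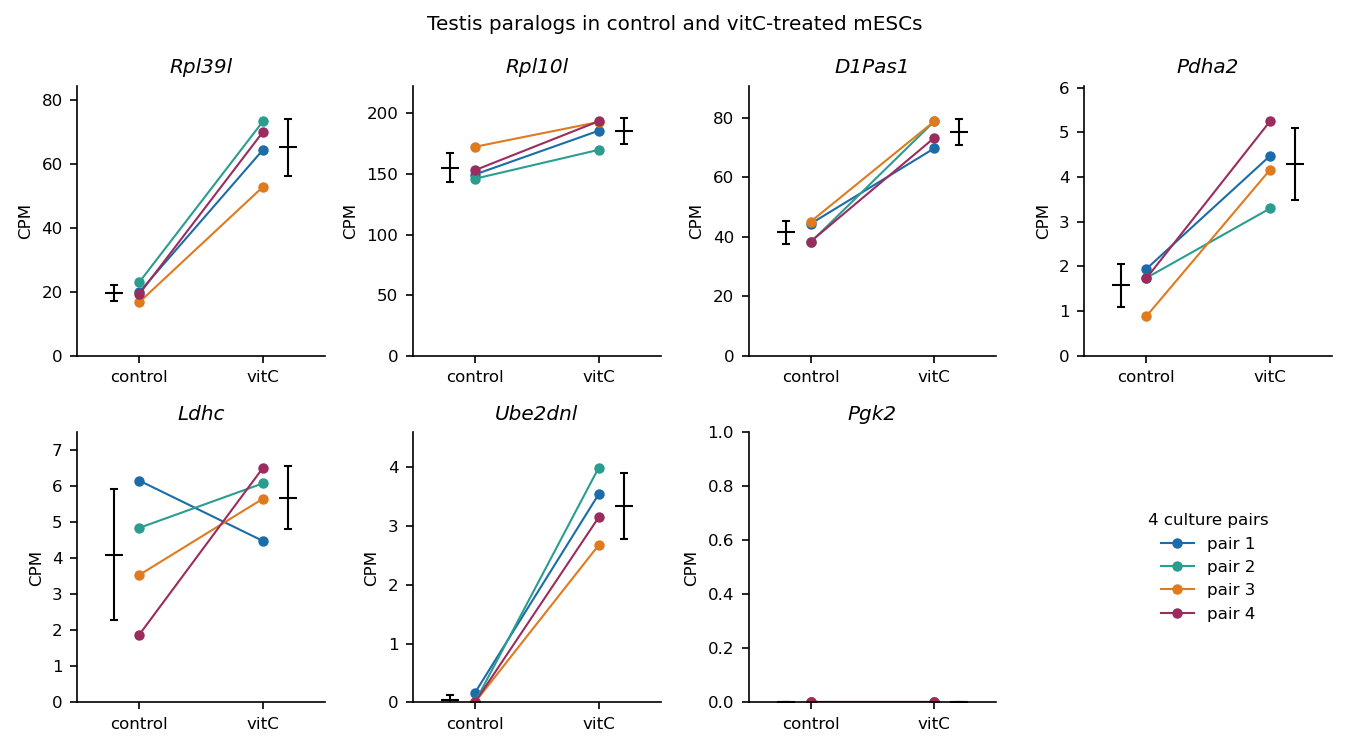
CPM of the 7 testis paralogs (y axis, a scale of its own in each panel) in control and vitC-treated mESCs. Each coloured line joins the control and the treated library of 1 pair, and black bars give the mean ± SD of the 4 libraries. Rpl39l, D1Pas1, Pdha2 and Ube2dnl show no overlap, pair 1 of Ldhc slopes down, and Pgk2 stays at 0.

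The upstream sequences of the 4 members without overlap, which were picked for their response to vitC, are shown next as a description. They are the 110 bases from 150 to 41 before the start that RefSeq gives on GRCm38.p6, read along the gene, with CG dinucleotides (CpGs) in capitals.
Rpl39l, chr16:10170078-10170187, plus strand: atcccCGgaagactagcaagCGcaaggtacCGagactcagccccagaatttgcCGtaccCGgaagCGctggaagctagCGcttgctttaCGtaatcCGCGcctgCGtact
D1Pas1, chr1:186967266-186967375, plus strand: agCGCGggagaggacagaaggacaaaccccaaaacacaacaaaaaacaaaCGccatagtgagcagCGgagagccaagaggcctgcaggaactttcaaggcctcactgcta
Ube2dnl, chrX:114904862-114904971, plus strand: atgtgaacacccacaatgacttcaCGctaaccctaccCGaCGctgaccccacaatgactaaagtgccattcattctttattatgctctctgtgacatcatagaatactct
Pdha2, chr3:141212396-141212505, minus strand: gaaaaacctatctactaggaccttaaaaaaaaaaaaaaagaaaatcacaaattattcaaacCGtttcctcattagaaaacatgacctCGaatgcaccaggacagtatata

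These windows had little in common. *Rpl39l* held 11 CpGs in them, *D1Pas1* 4, *Ube2dnl* 3 and *Pdha2* 2. In the longer window from 250 bases before to 50 after the start, available for all 7 members, the counts were 17 for *Rpl39l*, 15 for *D1Pas1*, 13 for *Rpl10l* and 4 each for *Pgk2*, *Pdha2* and *Ube2dnl*, against a median of 7 over 32851 windows of 27025 genes. *Ldhc* has 2 such windows, with 9 and 3 CpGs. The members without overlap thus stood on both sides of that median. The E-box CACGTG, which reads the same on both strands, was in none of the members' windows and in 7.15% of all. TCCCGC, on either strand, was in those of *Rpl10l* and *D1Pas1* and in 20.0% of all. No methylation or binding data were analysed for these genes, so these are descriptions of sequence.

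The parents were measured for context, with *Ldhb*, *Ube2d1* and *Ube2d3* as further widely expressed members of their families, which gives 10 genes. Of these, 8 had a difference below 0 and 2 above, and 1 of 10 was called lower and 0 higher at a limma adjusted p of 0.05, where 0.0205% of the genes tested were lower and 0.321% higher. The gene called was *Ldha*, the glycolytic lactate dehydrogenase subunit, which fell by 0.71 on the variance-stabilised scale (standard error 0.10, limma adjusted p = 0.0221). Its levels were 255, 262, 282 and 358 CPM in control and 148, 156, 173 and 185 CPM with vitC, so the groups did not overlap, as for 1.98% of the genes tested in this direction. Without 1 library its difference stayed between -0.76 and -0.61, while its limma adjusted p ranged from 0.0241 to 0.105 and missed the threshold in 5 of the 8 fits, those without control replicate 2 or 3 or vitC replicate 1, 2 or 3. With the replicate number as a block, which compares the libraries within pairs, its limma adjusted p was 1.16e-09.

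With the block, *Pgk1*, a glycolytic kinase and the parent of *Pgk2*, was called lower as well, by 0.22 (standard error 0.04, limma adjusted p = 0.0016), which makes 2 of 10 where 4.44% of the genes tested were lower. Neither fit called *Rpl39* (difference -0.09, limma adjusted p = 0.884, 0.22 with the block), *Rpl10* (-0.09, limma adjusted p = 0.819, 0.122 with the block) or *Ddx3x* (-0.09, limma adjusted p = 0.883, 0.105 with the block). *Pdha1* differed by 0.06 (limma adjusted p = 0.86) and *Ube2d2* by -0.03 (limma adjusted p = 0.961). The standard errors of these 5 were 0.06 to 0.09, and 0.034 to 0.043 with the block, so changes of that size were not detectable. Within the pairs, *Rpl10* and *Ddx3x* were lower in 4 of 4 and *Pdha1* was higher in 4 of 4.

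**Figure D3:**
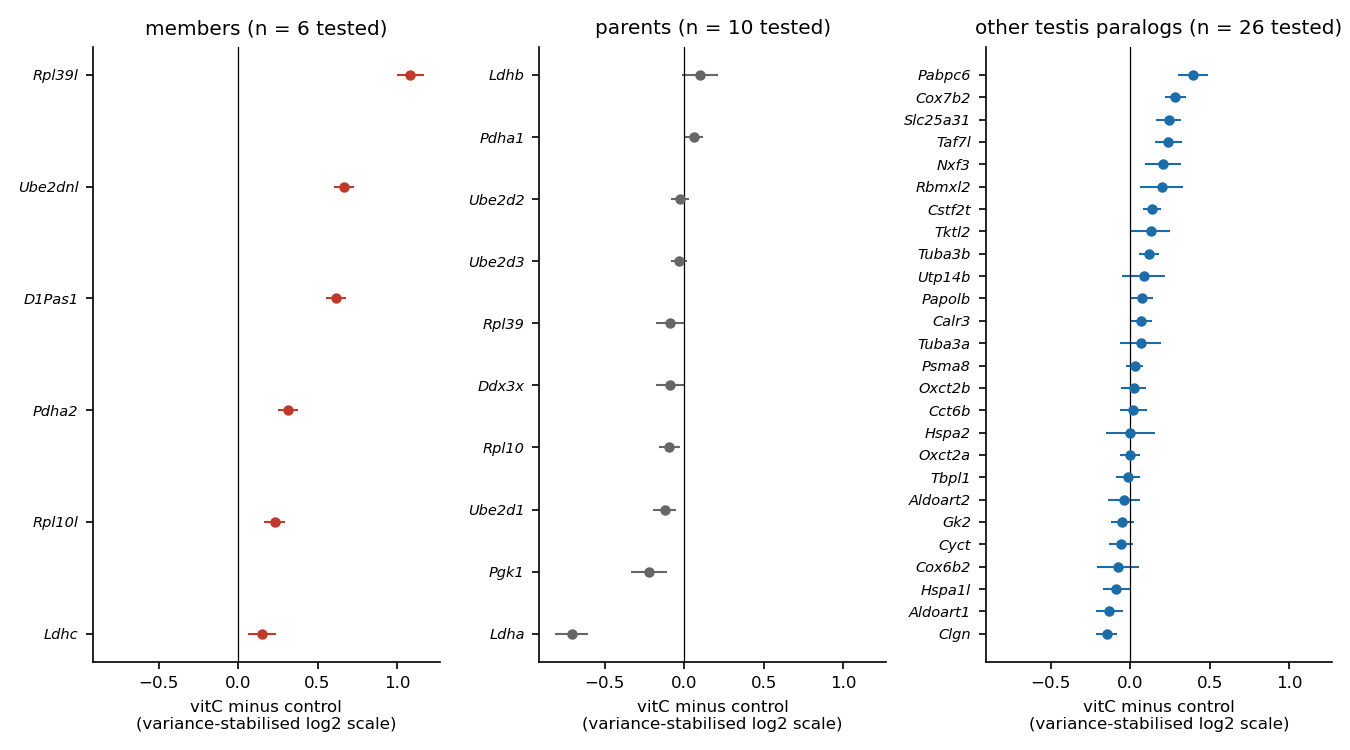
Difference between vitC-treated and control mESCs on the variance-stabilised log2 scale (x axis), with standard errors from limma, for the tested members, the parents and the other testis paralogs of the list. The 6 tested members lie above 0, from 0.15 for Ldhc to 1.08 for Rpl39l, and Ldha lies lowest, at -0.71.

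Levels per transcript length show how much of each gene pair came from the testis copy. For *Rpl39l*, the level per length was 12.9% ± 2.67 (SD, n = 4) of that of *Rpl39* in control and 45.6% ± 6.33 (SD, n = 4) with vitC. *Rpl10l* stood at 71.2% ± 2.33 (SD, n = 4) of *Rpl10* and at 92.2% ± 4.40 (SD, n = 4) with vitC, with the *Rpl10* level uncertain for the reason given above. The *Rpl10* copy *Rpl10-ps3* is named as a pseudogene, but GENCODE M21 types it as protein-coding. With 96.1% of its 50-base windows shared, it stood at 298 ± 30.2 CPM per kilobase in control (SD, n = 4). *Rpl10* itself stood at 213 ± 14.8 (SD, n = 4). If *Rpl10-ps3* drew reads from *Rpl10*, the percentages for *Rpl10l* are too high, which was not tested. *D1Pas1* went from 6.57% ± 1.03 (SD, n = 4) of *Ddx3x* to 12.7% ± 1.39 (SD, n = 4). The remaining copies were small beside their parents. *Ldhc* went from 2.00% to 4.54% of *Ldha*, a ratio in which the lower *Ldha* counts too, and *Pdha2* from 0.436% to 1.14% of *Pdha1*. *Ube2dnl* reached 9.82% of *Ube2d2* with vitC, from 0 in 3 of 4 control libraries. In order of level per length in control, *Rpl10l* (152 ± 11.5 RPKM, CPM per kilobase of transcript, SD, n = 4) was followed by *Rpl39l* (35.9 ± 4.67), *D1Pas1* (12.9 ± 1.16), *Ldhc* (2.99 ± 1.33), *Pdha2* (0.67 ± 0.20), *Ube2dnl* and *Pgk2*. The last pair in this order did not differ beyond their spread, with 1 read and no read in all controls.

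**Figure D4:**
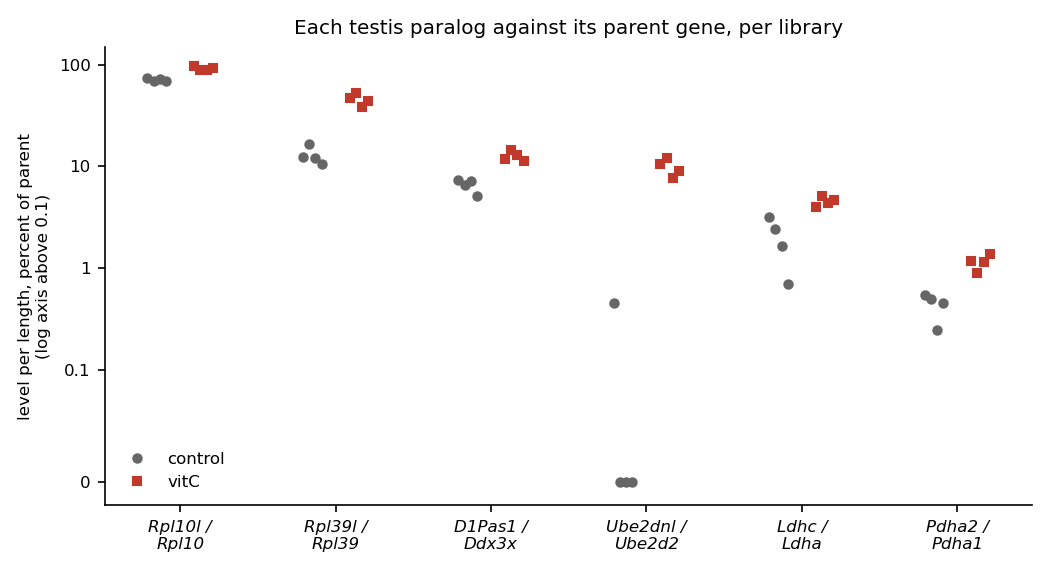
Level per transcript length of each testis paralog as a percent of its parent (y axis, logarithmic above 0.1 and linear below), 1 point per library, for control (grey circles) and vitC (red squares). The 4 vitC libraries lie above the 4 controls in each pair of genes shown. The levels of Rpl10l and Ldhc themselves overlapped between the groups, and their parents Rpl10 and Ldha were lower with vitC in 4 of 4 pairs. The testis copies were picked for their response to vitC, so nothing is read from this separation. Rpl10l/Rpl10 is highest, from 69.0% to 98.2%, with the level of Rpl10 uncertain.

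The mESC pairs fall into sets, pairs 1 and 2 and pairs 3 and 4, whose culture labels differ in kind and which the labels do not explain. Levels between the sets were not used to pick the members and were tested. The ribosomal RNA share of the repeat counts moved with the sets, at 42.0% to 51.5% in pairs 1 and 2 and 60.0% to 63.1% in pairs 3 and 4, and share and set cannot be told apart. Between the sets, 40.5% of the genes tested differed (limma adjusted p under 0.05), but 0 of the 6 tested members did. The nearest were *Rpl10l*, higher by 0.11 in pairs 3 and 4 (standard error 0.05, limma adjusted p = 0.0786), and *Rpl39l*, which differed by -0.13 (limma adjusted p = 0.105, standard error 0.06). Each was past the threshold in 1 of 8 fits that left out a library, *Rpl10l* without control replicate 4 (limma adjusted p = 0.0393) and *Rpl39l* without vitC replicate 4 (limma adjusted p = 0.024). Before adjustment, *Rpl10l* alone of the 6 was past 0.05, in limma and in edgeR. Of the parents, *Rpl10*, *Ddx3x*, *Pgk1* and *Ldha* were higher and *Ldhb* was lower in pairs 3 and 4, led by *Ldhb* with -0.31 (standard error 0.05, limma adjusted p = 2.65e-05). Each culture gave 2 libraries, so these p-values treat libraries of 1 culture as separate samples.

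The vitC response within each set rests on the values used to pick the members and is given for them without a test. The vitC difference of *Rpl39l* was 1.08 in both sets, that of *D1Pas1* 0.61 and 0.62, that of *Rpl10l* 0.24 and 0.22 and that of *Ube2dnl* 0.67 and 0.66. *Pdha2* differed by 0.23 and 0.40. *Ldhc* differed by -0.02 in pairs 1 and 2 and by 0.32 in pairs 3 and 4, a gap of 0.33 (standard error 0.13). Of all genes tested, 0 had a response that differed between the sets at a limma adjusted p of 0.05, and 4.11% did at an unadjusted p of 0.05.

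A wider list of 51 testis paralogs of widely expressed genes was examined next. Of these, 48 were in the table, 19 had no read in any of the 8 libraries and 26 had enough to be tested. The paralogs without a read include *Gapdhs*, the sperm form of the glycolytic enzyme GAPDH, *Pabpc2*, *Cetn1*, *Capza3* and *Hmgb4*. Of the 26, 0 were called in limma, where 0.321% of all genes tested were called higher. Before adjustment, 5 of them passed 0.05 in the higher and 1 in the lower direction, where 4.48% and 3.18% of all genes tested did. On recovered reads, edgeR called 0 of 14, where 0.293% of the genes were called higher, and 1 passed 0.05 in the higher direction before adjustment, where 4.43% of the genes did. The median difference of the 26 was 0.05 against -0.002 for all genes tested, and 16 lay above 0 and 10 below.

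With the replicate block, 5 of the 26 were higher in limma and 0 lower, where 6.36% of all genes tested were higher and 4.44% lower. *Pabpc6*, a testis copy of the poly(A)-binding protein gene, went from 10 to 47 reads summed over 4 libraries, or 0.39 on the variance-stabilised scale (standard error 0.08; limma adjusted p = 0.00228 with the block and 0.21 without). It was known from the study's own gene list when the list of paralogs was drawn up, so it is not independent evidence of a direction. *Cox7b2*, a testis form of a cytochrome c oxidase subunit, went from 3 to 18 reads, a difference of 0.28 (limma adjusted p = 0.0138 with the block and 0.178 without). *Slc25a31*, the germ cell ADP/ATP carrier, and *Taf7l*, a germ cell form of a TFIID subunit, each had a difference of 0.24, from 19 to 46 and from 23 to 50 reads (limma adjusted p = 0.0201 and 0.0404 with the block, 0.454 and 0.511 without). *Rbmxl2*, the germ cell copy of the splicing factor gene *Rbmx*, differed by 0.20 and was higher in 3 of 4 pairs. It was the only one of the 5 with enough reads to be tested in edgeR. With the block, edgeR called it (edgeR adjusted p = 0.0109, where 8.19% of the genes were called higher). The first 4 of these rest on few reads, as do *Ube2dnl* and *Pdha2*. For *Pabpc6* and *Cox7b2*, not every control library had a read. Like *Ube2dnl*, they passed the filter on low values only with their vitC-treated libraries, so no weight is put on their calls.

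Over the 8 libraries, the genes most like *Rpl39l* in their values were *Gm13227* (Pearson r = 0.988), *Cyp2b23* (r = 0.985) and *Ube2dnl* (r = 0.98). These are correlations over 8 libraries that share the vitC contrast and the culture sets, and they are given without a p. *Rpl10l* was most like *Degs1* (r = 0.97), *Trim23* (r = 0.968) and *Tmem2* (r = 0.963), and *D1Pas1* most like *Plb1* (r = 0.98), *Slco1b2* (r = 0.977) and *Plekhm1* (r = 0.974), the first 2 of which had 18 and 12 reads in all. *Pdha2* was most like *Naa11* (r = 0.96), *Cep57l1* (r = 0.954) and *Axin1* (r = 0.95). *Naa11*, itself a testis copy of the acetyltransferase gene *Naa10*, had 876 reads and was not in the list above. Its difference was 0.32 (standard error 0.06, limma adjusted p = 0.051, and 0.000369 with the block). *Ldhc* was most like *Leng9* (r = 0.957), *1700109H08Rik* (r = 0.94) and *Pelp1* (r = 0.939), and its r with the other members ranged up to 0.604, with *D1Pas1*.

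Of the 14 tested genes nearest to the members, 1 on each side, *Ldha* alone was called in limma. Over all genes tested, 0.0205% were called lower and 0.321% higher. With the block, *Wdr20rt*, which lies 1050020 bases from *Rpl10l*, was called as well, with a difference of 0.26 (limma adjusted p = 0.0105). In that fit 6.36% of the genes tested were higher and 4.44% lower, so nothing is read from these counts. The nearest tested gene after *Rpl39l*, *Atf7ip2*, begins 17801 bases downstream and differed by 0.13 (standard error 0.08, limma adjusted p = 0.772, 0.102 with the block). *Ldhc* and *Ldha*, neighbours on 1 strand, had differences of 0.15 (standard error 0.09) and -0.71. The groups of *Ldhc* overlapped and it was lower with vitC in pair 1, so the sign of its difference is not settled. *Tsg101*, which begins 10807 bases on the other side of *Ldhc*, differed by -0.08 (standard error 0.05, limma adjusted p = 0.775). *D1Pas1* overlaps the antisense transcript *Gm37912*, which has no values of its own here, over 188 of its 3212 bases. The library kit keeps the strand of the RNA, but whether reads were counted by strand is not given in the sources used here, so within these 188 bases the source of a read is uncertain.

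In the hESC libraries, which held 15367652 and 17188555 gene reads, there was 1 library per condition and no test. The human counterpart *RPL39L* had 226 reads in control and 277 with vitC, or 14.7 and 16.1 CPM, a log2 ratio of 0.13 with an exact 95% interval from -0.13 to 0.39 for counting error only. *LDHC* had 28 and 23 reads, a log2 ratio of -0.45 (interval from -1.31 to 0.40). *RPL10L*, *PGK2* and *PDHA2* had 0 reads in both, which allows up to 0.195 CPM in control and 0.175 CPM with vitC. The parents *RPL39* and *LDHA* had log2 ratios of 0.03 and 0.05. The absence of *RPL10L* reads in these human cells stands beside the 155 CPM of *Rpl10l* in untreated mouse cells. These libraries differ in species, line, medium and state of pluripotency.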

How the data were processed

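RNA was measured in 8 E14 mESC and 2 H9 hESC libraries. Per the methods and the submitters' notes, reads were trimmed with Trim Galore, mapped to mm10 or hg38 and counted with SQuIRE, and the submitters' notes also name HISAT2 and DESeq2. The gene values are variance-stabilised, on a scale like log2, as the authors deposited them. For repeats, the authors deposited uniquely mapped counts and expected counts, used here only for the share of ribosomal RNA repeats. 7 other columns of per-sample values were not used.

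Inverting the transformation gave whole reads, within 0.02 read, for 100% of the 116385 mESC values above the lowest. CPM are these reads scaled by edgeR's TMM. The 14631 genes with a read in 4 or more libraries were tested on the deposited values with limma 3.58.1 (lmFit, eBayes with trend), with Benjamini-Hochberg adjustment over these genes and a threshold of 0.05. Alternatives were the replicate number as a block, no filter, eBayes without trend, quantile normalization, edgeR 4.0.16 and DESeq2 1.42.0 on recovered reads (R 4.3.3), each library left out, and each culture set alone. The steps were tested on simulated data. The replicate numbers pair the libraries: both libraries of a pair bear 1 culture name, and over genes their departures from their group's mean had correlations of 0.626 to 0.765. The labels do not say that cultures were independent, so p-values measure the spread between these libraries.

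The members, the gene lists and the tests were chosen with earlier results of these data known. Named are all 7 members, their parents, the other testis paralogs called in either limma fit, and for each member with a median of at least 10 reads its 3 most correlated genes. Neighbours were chosen by position, and *Ube2dnl2* after its values were seen. *Ube2dnl*, *Ube2d2*, *Ube2dnl2*, *Wdr20rt*, *Fthl17a*, *Usp17lb* (a 2-cell-like marker) and the neighbour *Tgif2-ps2* were matched between table and annotation by synonym. Levels per length use 1 transcript per gene of GENCODE M21, and promoters are those of RefSeq on GRCm38.p6. Reads carry no molecular identifiers, so intervals cover counting error only.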

Additional observations from a re-analysis of the deposited data

Results flagged for a closer look

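Of 12 groups of 4 libraries of the members with any spread, 1 held a value far from the others: *Ube2dnl* in control replicate 1, at a variance-stabilised value of 6.29, where the other three controls were at the lowest value of the table, 6.13. It rests on 1 read. Chance alone marks about 5% of groups of normally distributed values. With the other controls tied at the lowest value, any single read would have been marked, so this rate does not apply here.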

How the results depend on the processing

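The differences of *Rpl39l*, *D1Pas1*, *Ube2dnl*, *Pdha2* and *Rpl10l* stayed above 0 under all 17 alternatives, and without 1 library they ranged from 1.04 to 1.154, from 0.59 to 0.64, from 0.64 to 0.70, from 0.276 to 0.346 and from 0.21 to 0.27. The members were picked for this contrast and all alternatives reuse the same libraries, so nothing is read from the constant sign. *Ldhc* ranged from 0.07 to 0.21 and was -0.0167 with replicates 1 and 2 only. On recovered reads, edgeR gave log2 fold changes of 1.73 (standard error 0.13) for *Rpl39l*, 0.86 (0.09) for *D1Pas1*, 1.41 (0.28) for *Pdha2*, 0.26 (0.07) for *Rpl10l* and 0.48 (0.34) for *Ldhc*, because this scale does not compress low counts. For *Ube2dnl*, with 1 control read, it gave 5.66 (0.57), and DESeq2 5.97 (1.11).

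Over all genes, 47 were called higher and 3 lower. These counts were 931 and 650 with the replicate block, 977 and 750 with the replicate block in edgeR, 111 and 20 in DESeq2, 77 and 9 with replicates 1 and 2 only, 66 and 9 with replicates 3 and 4 only, 53 and 5 after quantile normalization, 19 to 28 and 0 to 1 without 1 library. Other testis paralogs called higher numbered 5 of 26 with the replicate block and 0 to 0 without 1 library. With the replicate block in edgeR, which tested 14 of them, they numbered 1. Parents called lower numbered 2 with the replicate block in either tool and 0 to 1 without 1 library. Members that differed between culture sets numbered 0 to 1 without 1 library. Beside these, the block added calls for *Wdr20rt* and *Naa11*, and it changed no other call among the parents, the list of paralogs and the neighbours.

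Signs of values that were not past any threshold turned. The gap in vitC response between the sets was 0.000285 (quantile normalization) and 0.0845 (edgeR) for *Rpl39l* and 1.88 (edgeR, standard error 1.65) for *Ube2dnl*. Without 1 library it ranged from -0.146 to 0.146 for *Rpl39l*, -0.0879 to 0.066 for *Rpl10l*, -0.062 to 0.094 for *D1Pas1* and -0.0902 to 0.0668 for *Ube2dnl*. The set difference of *Pdha2* was 0.0308 (quantile normalization) and 0.0587 (edgeR), and without 1 library it ranged from -0.0462 to 0.0376, that of *D1Pas1* from -0.0141 to 0.0484. The cause of these changes was not tested. The hESC ratios moved within their intervals under median ratio scaling. Depth limits *Pgk2*, with no read, and *Ube2dnl*, *Pdha2* and *Ldhc*, at under 40 reads per library.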
